A study of Drosophila melanogaster with 4 samples.

Results

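Chromator regions in dense clusters on 3 autosomal arms of Drosophila melanogaster numbered 722 of the 5762 regions in the combined list of both replicates. A cluster was taken as a chain of at least 4 neighbouring regions on arm 2L, 3L or 3R in which each gap to the next region was under 5000 bp. The 722 members formed 149 chains and made up 22.0% of the 3279 combined-list regions on these arms. Another 1247 regions lay in 535 chains of 2 or 3, and 1310 stood alone, with no neighbour within that distance. The members were chosen by their start and end positions in the combined list, with no score used. That list and both replicate lists come from the same ChIP samples, so all values below describe the members and no test was run on them.

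The data are ChIP-seq of wild-type Oregon-R (Oregon-R-modENCODE) embryos aged 14 to 16 hours, with 2 ChIP samples and 2 input samples. The antibody, called WR, was directed at Chromator (Chro, also named Chriz), and the embryos were fixed in 1.8% formaldehyde. Whole embryos were used with no cell types separated, so strong binding in few cells and weak binding in many cannot be told apart. The labels number the replicates but do not say that they came from separate embryo collections. Each region carries 1 score from the authors, read here as a log2 ratio from its values. Scores are set against each other only within a list. On this reading a score of 1 is a doubling on the authors' scale. The lists give no read totals, and the sequencing depth is unknown.

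Chromator is a chromodomain protein of interphase chromatin, best known from the open interbands of the giant polytene chromosomes, where it is found with the zinc finger protein Z4. It is also known to interact with the histone H3 kinase JIL-1. In mapping studies it is known from promoters of broadly active genes and from borders between chromosomal domains, often together with the insulator protein BEAF-32. Interbands and active promoters can lie close together where genes are packed tightly.

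Most chains were short. Of the 149, 77 held 4 regions, 43 held 5, 15 held 6 and 9 held 7. Chains of 8 or more were rare, with 5 in all holding 46 members, and the longest had 10 regions. The median chain extended over 17.2 kb (quartiles 14.4 to 23.0 kb), the shortest over 8.71 kb and the longest over 54.8 kb. Regions filled 59.9% of the 2.82 Mb inside chains, and chains took up 3.74% of the length of the 3 arms. The midpoints of neighbouring members lay a median of 4145 bp apart (quartiles 3202 to 5338 bp).

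**Figure D1:**
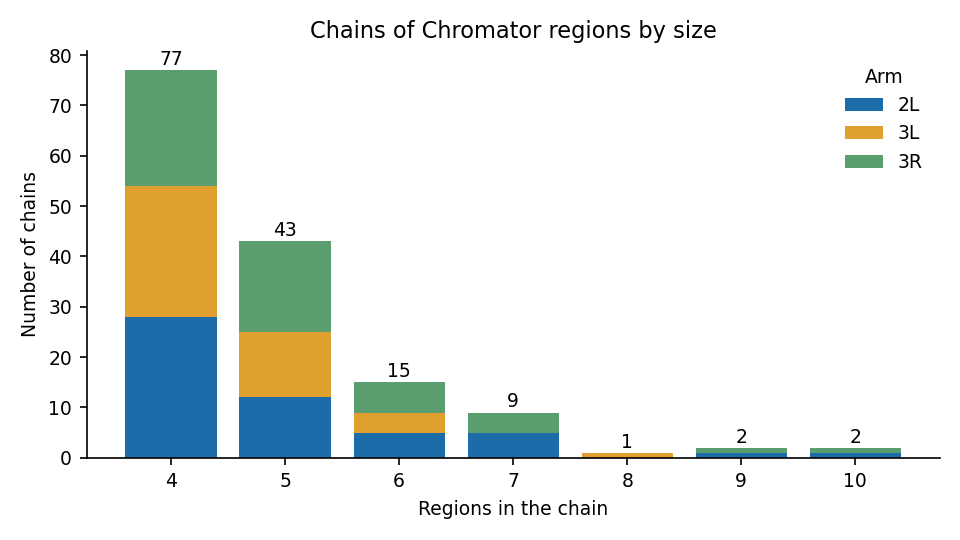
Number of chains (vertical axis) by the number of Chromator regions in the chain (horizontal axis), stacked by arm 2L, 3L and 3R, with the total above each bar. The 77 chains of 4 regions and 43 of 5 make up most of the 149, and only 5 chains have 8 or more.

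The limit of 5000 bp cut through a continuous range of gaps. Of the 573 gaps inside chains, 178 (31.1%) were under 1000 bp, the median was 1757 bp and 67 were 4000 bp or more. The widest gaps that still joined members were 4995 and 4987 bp, and the narrowest on the outer side of a chain were both 5001 bp. The median outer gap was 14014 bp. A gap of 4000 bp or more was present in 23 of the 77 chains of 4. On the 3 arms, 117 gaps were at least 5000 but under 6000 bp, and 21 of them parted shorter chains that would have held 4 or more together. Over all 3276 neighbours on these arms the median gap was 7954 bp.

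The chains were spread over all 3 arms and were most frequent per length on 2L. This arm had 52 chains with 256 members, which is 26.3% of its regions and 11.1 members per Mb. Of these, 10 chains with 52 members lay in 1 window of 1 Mb, 2L:10000001-11000000, so the rate of 2L leans on that window. On 3R there were 53 chains with 265 members, 20.7% of its regions and 9.50 per Mb. On 3L there were 44 chains with 201 members, 19.6% of its regions and 8.19 per Mb. The share of regions that were members was lowest in the 25% of each arm with the highest coordinates. It was 19.6% there on 2L, 11.8% on 3L and 5.75% on 3R, against 26.4%, 23.2% and 28.3% in the 25% with the lowest coordinates. The fall was not steady on 2L and 3L, where the share was highest in the second 25%, at 31.5% and 26.6%. The high-coordinate end is next to the centromere on 2L and 3L and at the telomere on 3R.

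Members were unevenly spread along the arms. Of 74 full windows of 1 Mb, 64 held members and 10 had none, and the median was 8. The 8 windows with 20 or more held 213 members (29.5%) and 502 of all regions on the arms (15.3%). The fullest was at 2L:10000001-11000000, with 52 members in 10 chains among its 76 regions. These 52 are 7.20% of all members. The next was 3R:5000001-6000000 with 35 members, followed by 3R:20000001-21000000 with 23. Windows rich in members were only weakly richer in other regions, with Pearson's r = 0.12 and Spearman's rho = 0.20 between both counts over the 74 windows. Both counts share the length of the window, and a region counted as a member is not counted among the others.

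In the fullest window, singled out after its values were seen, 8 of the 10 chains lay within 290 kb at 2L:10199854-10489638. They held 44 of the 51 regions there. The gaps between these chains ran from 5061 to 35689 bp, and 2 of them were under 6000 bp. The scores of the 52 members had a median of 0.61 and ran from 0.25 to 1.41, and 38 of them (73.1%) were overlapped by both replicate lists. The median over all 722 members was 0.67, and 72.7% of them were overlapped by both lists, against 61.9% of all regions on the arms.

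Long stretches had regions but no chain of 4 or more. The longest was 4.14 Mb at 3R:21720193-25861591, where 156 regions were listed. The next was 2.24 Mb at 3L:16589237-18833123 with 87 regions. Between neighbouring chains the median distance was 297 kb (quartiles 80.6 to 673 kb), and 12 chains lay under 20 kb from the one before.

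The longest chain of 2L had 10 regions over 39.7 kb at 2L:10403386-10443046, inside the fullest window. Its combined-list scores in order were 0.53, 0.66, 1.17, 0.52, 0.79, 0.89, 0.46, 0.85, 0.72 and 0.44. In replicate 1 the first 6 scored 0.62, 0.74, 1.20, 0.51, 0.96 and 0.84, the seventh had no overlap, the eighth and ninth had 1.05 and 0.77, and the last had none. In replicate 2 the first 9 scored 0.63, 0.79, 1.25, 0.60, 0.68, 0.99, 0.70, 0.90 and 0.74, and the last had no overlap. The strongest region was thus the third in all 3 lists. The 2 regions missing from a replicate list were the narrowest of the chain, at 1001 and 1475 bp, and had its lowest scores.

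The longest chain of 3R also had 10 regions but was more open, over 54.8 kb at 3R:5565222-5620046, with regions on 46.9% of its length. Its combined-list scores in order were 0.61, 0.81, 0.63, 0.48, 1.03, 0.51, 0.39, 1.19, 0.49 and 0.83. In replicate 1 they were 0.62, 0.79, 0.63, 0.50, 1.03 and 0.61 for the first 6, none for the seventh, and 1.23, 0.50 and 0.85 for the last 3. In replicate 2 the 10 values were 0.72, 0.93, 0.66, 0.70, 1.12, 0.52, 0.63, 1.28, 0.52 and 0.81. Region 8 of the chain was the strongest and region 5 the next in every list, with weaker regions on both sides of each. Of its 10 regions, 9 were in both replicate lists.

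The longest chain of 3L had 8 regions over 36.4 kb at 3L:9418762-9455156. Its combined-list scores in order were 1.55, 1.21, 0.66, 1.22, 0.76, 0.64, 0.81 and 0.60. In replicate 1 they were 1.53, 1.40, 0.62, 1.19, 0.74, 0.63, 0.85 and 0.63, and in replicate 2 they were 1.62, 1.06, 0.85, 1.22, 0.83, 0.76, 0.98 and 0.58. All 8 regions were in both replicate lists and the first was the strongest in each. It ranked 137 of 5762 in the combined list.

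**Figure D2:**
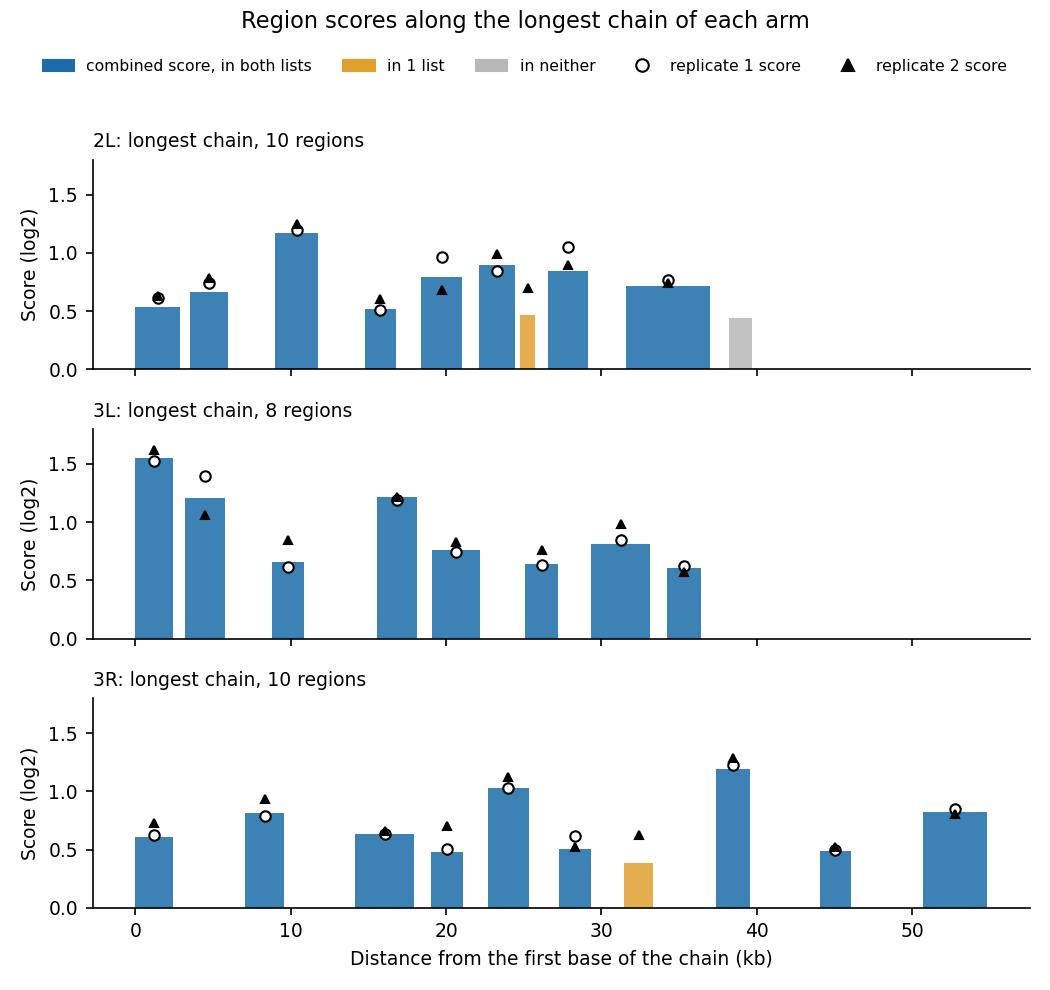
Scores along the longest chain of 2L, 3L and 3R, by distance from the first base of the chain in kb. Bars span the combined-list regions and reach their score on the log2 scale, coloured by whether both, 1 or neither replicate list overlapped the region. Circles and triangles give the highest score of an overlapping replicate 1 or replicate 2 region, and heights are comparable only within a list. Strong and weak regions lie side by side in all 3 chains.

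Of the second chains of each arm by size, those on 2L and 3L had similar mean scores and that on 3R was weaker. At 2L:18676074-18715212, 9 regions had scores from 0.37 to 1.31 (mean 0.82), and 8 were in both replicate lists. At 3L:21507874-21534010, 6 regions had scores from 0.45 to 1.14 (mean 0.83), all in both. At 3R:11165454-11198704, 9 regions had scores from 0.29 to 0.70 (mean 0.48), and 4 were in both. The last chain was therefore among the longest of all and at the same time among the weaker.

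Scores varied far more among the regions of a chain than between chains. The SD among the members of a chain was 0.29 on the log2 scale, against a between-chain SD of 0.05 estimated from a one-way random-effects split. Chains accounted for 2.85% of the score variance of the 722 members. In the median chain the strongest region exceeded the weakest by 0.64 on the log2 scale, or 1.56-fold, and the range over the 149 chains was 1.09-fold to 2.58-fold. The scores that overlapping regions had in replicate 1 gave 4.26% between chains, and those in replicate 2 gave 3.16%. In chains of 2 or 3 the share was 6.85%.

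**Figure D3:**
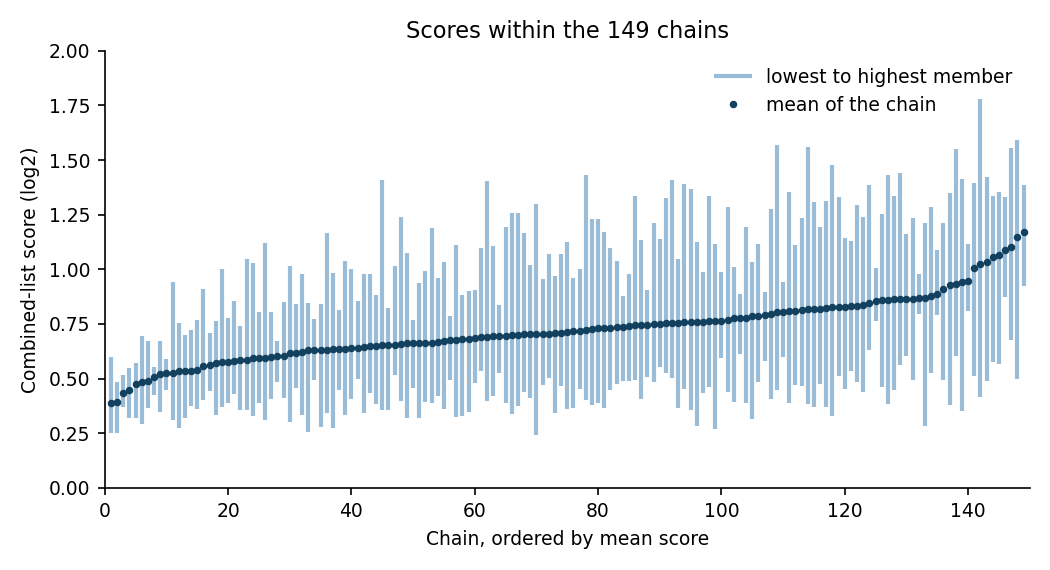
Combined-list scores (log2) of the 149 chains, ordered by their mean score from left to right. Lines run from the lowest to the highest member and points are the chain means, which lie between 0.39 and 1.17. The line of a typical chain is longer than the spread of most chain means.

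Neighbouring members did not have similar scores. Pearson's r between the scores of neighbours in a chain was -0.002 and Spearman's rho -0.05 over 573 pairs, and r was 0.04 for members 2 places apart (424 pairs). These pairs share regions with each other. Weak correlation was not particular to the members. Pearson's r was 0.094 in chains of 2 or 3 (712 pairs). For neighbours that the rule does not join it was -0.016 at gaps of 5000 to 10000 bp (496 pairs) and 0.022 at 10000 to 50000 bp (1096 pairs). The narrowness of a gap made little difference. Where the gap was under 500 bp (90 pairs), the stronger neighbour had a median score of 0.85 and the weaker 0.49. Where it was 4000 bp or more (67 pairs), the medians were 0.86 and 0.49. Neighbours parted by 5000 to 10000 bp, which the rule does not join, had medians of 0.92 and 0.50 over 496 pairs.

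End and inner regions of a chain had similar scores, widths and shares in both replicate lists, while more end regions were in neither list. The median score was 0.69 over the 298 end regions (quartiles 0.49 to 0.95), with a median width of 2198 bp. Over the 424 inner regions it was 0.66 (0.49 to 0.89), with 2181 bp. Of the end regions 72.1% were in both lists, and of the inner regions 73.1%. In neither list were 16.8% of the end and 11.3% of the inner regions, against 26.1% of all regions on the arms. The strongest region was an inner one in 75 of 149 chains (50.3%) and the weakest in 78 (52.3%), while 58.7% of all members are inner. The shares of chains count each chain once, and the share of members gives longer chains more weight. They are therefore unlike measures, and no shortfall of inner regions can be read from them.

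Strength and width went together across members. The correlation of score and width had r = 0.44 (Pearson) and rho = 0.73 (Spearman) over the 722 members, whose widths ran from 1001 to 7317 bp with a median of 2190 bp. Both values come from the authors' calling of the same region, so they are not independent readouts. The 3 widest members were all on 2L, at 2L:10259846-10267162 (7317 bp), 2L:13365302-13372032 (6731 bp) and 2L:10330100-10336136 (6037 bp). Their scores of 0.87, 0.50 and 0.91 were moderate. The replicate lists split the first into 2 regions each, the second into 3 in replicate 1 with 1 in replicate 2, and the third into 1 and 2. In all, 10 members spanned several regions of replicate 1 and 14 several of replicate 2. The reverse was rarer, with 2 regions of replicate 1 and 3 of replicate 2 that spanned more than 1 member.

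The strongest member was at 3R:21705998-21708844, the first of a chain of 4, and scored 1.78 in the combined list, 1.81 in the replicate 1 list and 1.76 in the replicate 2 list. It ranked 14 among the 3279 regions of the 3 arms. The next was at 3R:25870814-25873522 with 1.59, region 4 of a chain of 6. After it came 2L:6478798-6482570 with 1.57, the last of a chain of 5, and 3R:25877128-25879514, also with 1.57 but ranking 1 place lower, region 5 of the same chain of 6. These neighbours on 3R scored 1.72 and 1.75 in replicate 1, and 1.54 and 1.43 in replicate 2. The last of the 5 strongest was at 2L:8363532-8367180 with 1.56, the first of a chain of 5. At the very top of the list, members were somewhat fewer than their share of regions. Of the 100 highest-scoring regions on the 3 arms, 16 were members (2.22% of members), 35 were in chains of 2 or 3 (2.81%) and 49 stood alone (3.74%). These kinds made up 22%, 38% and 40% of the regions on the arms, and the difference was not tested.

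The chains with the highest mean scores were at 2L:7026150-7043734 with 1.17 over 4 regions, at 3R:25861592-25885052 with 1.15 over 6, and at 3L:22855712-22873290 with 1.10 over 4. Their regions differed in strength, from 0.50 to 1.59 in the chain on 3R, from 0.68 to 1.56 in that on 3L and from 0.92 to 1.39 in that on 2L. In the 2L and 3L chains the weakest region was above the median of all members, 0.67, and in the 3R chain it was below. The lowest means were 0.39 at 3L:3937170-3947966, 0.39 at 3L:18833124-18845792 and 0.43 at 2L:13285638-13297284, each with 4 regions.

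How the members scored beside the other kinds of region depended on the list and on which regions of it were counted. In the combined list the median was 0.67 for members (quartiles 0.49 to 0.91), 0.69 for chains of 2 or 3 (0.49 to 0.97) and 0.56 for single regions (0.46 to 0.89). As ratios these medians are 1.59, 1.61 and 1.48. In the replicate lists the regions that overlapped members had the lowest median of the 3 kinds. In replicate 1 it was 0.82 over 601 regions, against 0.87 over 966 for chains of 2 or 3 and 0.87 over 750 for single regions. In replicate 2 it was 0.80 over 568 regions, against 0.88 over 910 and 0.87 over 733. The quartile ranges overlapped widely in every list, and no difference was tested. The order also turned within the combined list. The median of members minus that of single regions was 0.11 over all regions and 0.0322 when only regions at least 1301 bp wide were chained. It was -0.0718 when only regions in both replicate lists were chained and -0.0786 in the stronger 50% of regions. The combined list holds more narrow single regions. Of the single regions, 27.0% were narrower than 1301 bp, the shortest width in either replicate list, against 6.79% of members.

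**Figure D4:**
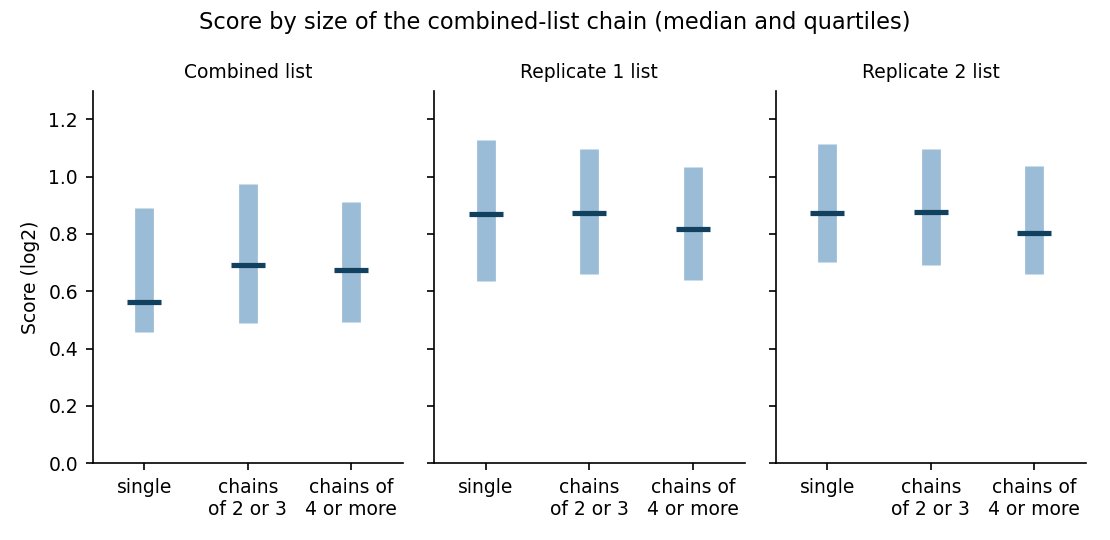
Median score (dark line) and quartiles (light bar) on the log2 scale for single regions, chains of 2 or 3 and chains of 4 or more, in the combined list and for the replicate 1 and replicate 2 regions that overlap each kind. Members score above single regions in the combined list, at 0.67 against 0.56, and below them in both replicate lists. Among combined-list regions in both replicate lists, chained anew, the difference also turned, to -0.0718.

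A larger share of the members than of other regions was overlapped by both replicate lists at 1 bp or more. Of the 722 members, 525 (72.7%, Wilson 95% interval 69.4 to 75.8) were in both lists, against a background of 61.9% of all 3279 regions on the 3 arms and 59.8% of the whole combined list. The share was 67.9% in chains of 2 or 3 and 50.2% in single regions. A further 99 members (13.7%) were in 1 list, near the 12.0% of the 3 arms and 12.1% of the whole list, with 67 of them in replicate 1 and 32 in replicate 2, and 98 (13.6%) were in neither, against 26.1% of all regions on the arms and 28.1% of the whole list. By arm the share in both lists was 73.0% on 2L, 69.7% on 3L and 74.7% on 3R. The intervals treat regions as independent, which neighbours in a chain may not be, and cover counting error only.

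The overlap followed the score, and the width of regions moved with it. Members in both lists had a median score of 0.80 and a median width of 2321 bp. Those in 1 list had 0.43 and 1923 bp, and those in neither had 0.41 and 1384 bp. Of the last, 43 of 98 were narrower than 1301 bp. When the scores of all regions on the 3 arms were divided into quartile classes, 99.1% of members in the third class and 98.8% in the highest were in both lists, against 93.4% and 93.9% of single regions. In the second class, with scores from 0.47 to 0.63, 66.5% of 173 members were in both lists against 30.1% of 369 single regions. Their median widths were 2057 and 1235 bp. Among regions of at least 1301 bp in that class the shares were 77.2% of 149 members and 64.5% of 172 single regions. In the lowest class 12.9% of 155 members and 7.22% of 388 single regions were in both. The distance between members and single regions was thus smaller once width was limited. Over all scores at that width it was 78.0% for members, 76.3% for chains of 2 or 3 and 68.7% for single regions. The part that width plays was not tested.

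**Figure D5:**
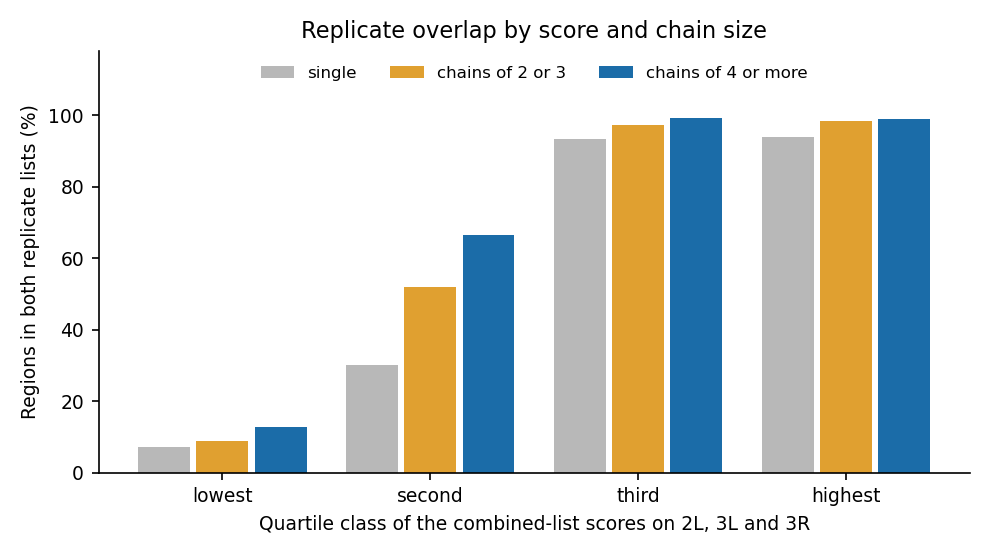
Percentage of combined-list regions on 2L, 3L and 3R overlapped by both replicate lists, by quartile class of the score and by chain size. Nearly all regions in the third and highest classes are in both lists, and the kinds differ most in the second class, at 66.5% of members and 30.1% of single regions.

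A minority of chains was seen whole in both replicates. In 35 of 149 chains (23.5%) every region was in both lists, in 54 (36.2%) all but 1 were, and in 44 (29.5%) all but 2. Of the 29 chains with 6 or more regions, 5 were complete in both lists. A chain is complete only if each of its regions is in both lists, as 72.7% of members were. These counts therefore depend on the number of regions in the chain and are no separate measure of agreement. At the other extreme, 4 chains had no region in both lists. At 3L:18833124-18845792 the 4 regions, with scores of 0.37, 0.48, 0.25 and 0.46, were in neither list. At 3L:3937170-3947966 the scores were 0.25, 0.30, 0.60 and 0.41, and 3 of the regions were in 1 list. At 3L:9038798-9048932 the scores lay between 0.43 and 0.55, and 2 of the 4 regions were in neither list. The fourth such chain, at 3R:10992168-11007174, was named after its values were seen. Its 4 regions were in neither list and scored from 0.40 to 1.41, the highest being the first.

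Of the 197 members not in both lists, 114 (57.9%) were inner regions, close to the 58.7% of all members that are inner. Of those in neither list 49.0% were inner. When the regions in both lists alone were chained by the same rule, 56 chains with 260 members were left, and 56 of the 149 chains (37.6%) kept 4 regions in a row.

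Chains rebuilt from each replicate list alone were fewer. Replicate 1 gave 89 chains with 430 regions, the longest of 8, and replicate 2 gave 70 chains with 334 regions, the longest of 10. Of the replicate 1 chains 56 (62.9%) were overlapped by a replicate 2 chain, and of the replicate 2 chains 56 (80.0%) by a replicate 1 chain. Of the 149 combined-list chains, 55 (36.9%) were overlapped by chains of both replicates and 51 (34.2%) by chains of neither. The first share was 27.3% for chains of 4, 41.9% for chains of 5 and 55.2% for chains of 6 or more. A chain of 4 that loses 1 region in a replicate list is too short to count there. Longer chains can lose regions and still count, so these shares cannot tell whether longer chains recur better. Within the replicate lists, regions in chains of 4 or more were overlapped by the other list about as often as all regions on the arms, at 87.4% against 87.9% in replicate 1 and 92.8% against 92.2% in replicate 2. Single regions were overlapped at 87.0% in replicate 1 and 89.4% in replicate 2, and chains of 2 or 3 at 88.8% and 94.9%. Regions of the longer chains thus lay near the share of all regions in each replicate list, and close to single regions in replicate 1. Members of the combined list were overlapped by both lists more often than all regions on the arms, at 72.7% against 61.9%.

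Where both replicates had a region, they ranked the members of a chain in a similar way. For 503 members a single region of each replicate overlapped only that member. The median offset between the midpoints of these replicate regions was 53 bp, and 9 in 10 were at or below 218 bp. Their scores had Pearson's r = 0.76 and Spearman's rho = 0.70, and the SD of the difference was 0.19. The values were r = 0.78 for 811 pairs from chains of 2 or 3 and r = 0.83 for 633 pairs from single regions. In 111 chains with 3 or more such pairs, r was 0.77 over 443 members after each chain's mean was removed. The same member was the highest in both replicates in 72 of the 111 chains (64.9%). The pairs share the authors' processing.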

How the data were processed

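The authors deposited 3 lists of enriched regions, 1 for each of the 2 ChIP samples and 1 for the replicate set, and input lists were not analysed here. The submitters' processing notes name Bowtie 0.12.7, and per the file headers coordinates are those of FlyBase release 5. Which program called the regions, at what threshold, and how replicates were joined is not given in the sources used here. The deposited score was read as a log2 ratio from its values. Raised as a power of 2, 5758 of 5762 combined-list scores, 3986 of 3987 replicate 1 scores and 3841 of 3841 replicate 2 scores equalled a whole-number ratio multiplied by a constant of that list (relative tolerance 1e-09, denominators up to 3000). Of 3000 random numbers at most 1.73% passed. The shortest region was 1301 bp in the replicate lists and 1001 bp in the combined list.

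Regions were sorted by start and joined where the next start minus the previous end minus 1 was under 5000 bp. Overlap meant at least 1 shared bp. The score of a replicate region was taken from the one sharing the most bases, and for named regions from the highest overlapping one. Named chains were the 2 with the most regions per arm, the 3 with the highest and the 3 with the lowest mean score, and 3 with no region in both lists. Named members were the 5 strongest and the 3 widest. The members and the choices were made with earlier results of these data known. Chaining and overlap were tested on 2881 simulated regions, and all chain sizes and overlaps were found. A planted between-chain share of 20% was found as 23.4% in simulated chains of 2 or more. That share is far above the 2.85% of the members, so the check does not show how closely a small share is estimated. The gene table at hand has Release 6 coordinates and was not used, so regions carry no gene annotation. Scripts ran in Python 3.11.15 with scipy 1.17.1, pandas 2.3.3, numpy 2.4.6 and, for figures, matplotlib 3.10.9.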

Additional observations from a re-analysis of the deposited data

How the results depend on the processing

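Of 61 alternative values for 5 results, 31 stayed within the tolerance of their result, 25 moved beyond it and 5 turned their direction. The tolerance was 1.5 times for counts, the Wilson interval for the share in both lists, and the SD of the 2 replicate-list values for the score difference (0.0112) and the share of variance (4.72 percentage points, which is wider than the main value itself). The numbers of 722 members and 149 chains follow from the limits of the rule. They were 278 and 63 with gaps under 2500 bp, 1365 and 234 under 10000 bp, 1253 and 326 with 3 or more regions in a chain, and 414 and 72 with 5 or more. In the stronger 50% of regions they were 87 and 20, and among regions in both replicate lists 260 and 56, since fewer regions by construction leave fewer neighbours. In the replicate lists alone members ranged from 334 to 430 and chains from 70 to 89. The median score difference of 0.11 between members and single regions was 0.0697 with gaps under 2500 bp, 0.14 under 10000 bp, 0.0936 with midpoints under 7500 bp apart and 0.0322 among regions as wide as the shortest replicate region. It turned to -0.0786 in the stronger 50%, -0.0718 among regions in both lists, and -0.0606 and -0.0764 in the replicate 1 and replicate 2 lists alone. The cause was not tested. The share of members in both lists, 72.7%, was 79.9% with the width limit, 98.9% in the stronger 50% and 76.0% with regions under 500 bp apart merged. The replicate 1 and 2 lists alone, where the share is that overlapped by the other list, gave 87.4% and 92.8%. The share of score variance between chains, 2.85%, was -1.08% with 5 or more regions, a value below 0 that the estimate allows, and 0.46% and 7.13% in the replicate 2 and replicate 1 lists alone. The shares by width and the omission of the fullest window of 2L were added with the data in view, and that omission gave 670 members, 139 chains, a score difference of 0.115 and a variance share of 2.92%. No paired analysis was possible because the results are descriptions of regions and come from no test between groups of samples. With the depth unknown, no detection limit can be given for weak regions missing from a list.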

Other observations

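The same rule gave chains of similar size outside the 3 arms. On the X, 250 of 1059 regions (23.6%) were in 51 chains of 4 or more, the longest of 8, with a median extent of 16.9 kb. Their median score was 0.76, against 0.82 for chains of 2 or 3 and 0.62 for single regions of the X. Of these members 69.6% were in both replicate lists, against 45.7% of single regions of the X. The SD among the members of an X chain was 0.33, and the estimated share of variance between chains was below 0, at -6.17%. On 2R, 253 of 1089 regions (23.2%) were in 50 chains, the longest of 11. Some 2R values were close to those of the 3 arms, but the order of the kinds by score differed. The median score of 2R members was 0.66, against 0.63 for chains of 2 or 3 and 0.62 for single regions of 2R. On the 3 arms these medians were 0.67, 0.69 and 0.56. Of the 2R members 70.4% were in both lists, against 53.5% of single regions of 2R. The share of variance between chains was 2.68%. On the small chromosome 4, 17 of 79 regions (21.5%) were in 4 chains with a median score of 0.50, below the 0.65 of its single regions. In both lists were 47.1% of these 17, against 51.7% of its single regions. None of these differences was tested.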
